A study of Mus musculus with 6 samples.

Results

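The oligodendrocyte lineage genes described here were chosen by symbol as 9 genes that mark the passage from precursor to newly formed oligodendrocyte: Pdgfra, Cspg4, Gpr17, Bcas1, Enpp6, Olig1, Olig2, Sox10 and Lhfpl3. Of these, 6 had an expression value under their own Ensembl identifier (Cspg4, Bcas1, Enpp6, Olig2, Sox10 and Lhfpl3), among 15441 genes with a value. Pdgfra was read from a locus that carries another identifier, as described below, and is kept apart from the counts. Gpr17 and Olig1 were not analysed here.

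Cortical ischemia was induced in male C57/BL6J mice of 6 to 8 weeks by photothrombosis, in which Rose Bengal in the blood is activated by cold light over the sensorimotor cortex and clots the vessels beneath. RNA of the whole ipsilateral cortex was taken 1, 3, 7, 14 or 28 days after the stroke, and the sham group, operated without illumination, was sampled 7 days after the operation. The RNA of 3 mice was pooled at each time, so each group is 1 library, and differences between libraries could be neither checked against replicates nor tested. The paired-end reads of 150 bases came from poly(A)-selected, strand-specific libraries with a stated average of 33.6 M reads, and the depth of each library is unknown.

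Oligodendrocyte precursors remain in the adult cortex as a dividing, migrating population. They carry the PDGF receptor alpha and the NG2 proteoglycan, and the transcription factors OLIG2 and SOX10 accompany the lineage from precursor to myelinating cell. On leaving the cycle the cells lose the PDGF receptor and pass through a short premyelinating stage marked by BCAS1 and ENPP6 before they make the major myelin proteins.

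The values are the authors' FPKM, fragment counts divided by transcript length and by the size of the library, which allows levels to be compared between genes. Each start of a transcript, each end and each splicing event is listed with an FPKM. A gene's value is the largest of its summed starts, its summed ends and any single event in that library. The events of a gene are not independent measurements: the start and the end of Olig2, and those of Sox10, had the same FPKM in every library. The values of the 6 lineage genes were the same when events outside the annotated gene were left out. A log2 ratio is log2((FPKM + 0.1)/(sham FPKM + 0.1)), and a gene was called higher or lower when it was at least 1 in size (2-fold). In whole cortex, fewer cells of a type and less RNA per cell cannot be told apart.

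The tissue expressed neuron and oligodendrocyte genes throughout. Of 8 neuron markers 7 had a value, and their summed level lay between 1103 FPKM on day 14 and 1617 FPKM in sham, while Mbp, the major cytoplasmic myelin protein, lay between 1142 and 1591 FPKM. The day 14 library stood apart in 2 ways that touch the lineage genes. Across genes, the log2 ratio on day 14 fell with transcript length (Spearman rho -0.41, against -0.25 on day 1 and between -0.09 and 0.00 at the other days). Of the genes with an end of at least 1 FPKM, 19.0% had a ratio of summed starts to summed ends below 0.5 on day 14, against 7.39% to 10.8% in the other libraries.

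Because the exon content of Bcas1 changed more than its total level, the sequences of its alternative exons are shown first. Bcas1 encodes a basic protein of early myelinating cells and lies on chromosome 2 on the minus strand (GRCm38, chr2:170346991-170427845). The authors' events hold a run of 3 neighbouring exons that are included together, reduced to the last exon, or skipped together. The exons below were read from the GENCODE M21 transcript Bcas1-203, 5′ to 3′ on the minus strand, and stand in lower case because the whole exon is what alternates. All 3 are coding throughout, each length is a multiple of 3, and together they make 273 bases or 91 codons.
Bcas1 run, first exon (chr2:170370450-170370491, 42 bases): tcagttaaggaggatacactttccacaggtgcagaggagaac
Bcas1 run, middle exon (chr2:170366364-170366528, 165 bases): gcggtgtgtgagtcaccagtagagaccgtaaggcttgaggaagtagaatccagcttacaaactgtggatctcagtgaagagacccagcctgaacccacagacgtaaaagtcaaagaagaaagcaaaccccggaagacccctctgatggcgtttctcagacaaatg
Bcas1 run, last exon (chr2:170356248-170356313, 66 bases): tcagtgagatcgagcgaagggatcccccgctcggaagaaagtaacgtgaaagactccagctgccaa

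The lineage genes varied to unlike degrees across the 28 days. Between the highest and the lowest library they were 1.17-fold (Lhfpl3) to 3.09-fold (Cspg4) apart. The median for the 10169 genes at 1 FPKM or more in every library was 1.59-fold. None of the 6 reached a 2-fold difference from sham at any day, in either direction. The share of all genes called higher was 5.11% on day 1, 8.54% on day 3, 8.53% on day 7, 8.97% on day 14 and 3.68% on day 28. The share called lower was 4.48%, 2.53%, 2.12%, 6.92% and 2.79%. Shares of this size amount to less than 1 gene in 6, so the count of 0 does not set the lineage genes apart. At day 7 all 6 were above sham (of all genes 53.8%), with log2 ratios from 0.12 (Bcas1) to 0.76 (Cspg4), and on day 28 there were 5 below sham (of all genes 46.2%), with Cspg4 lowest at -0.78. Their median log2 ratio was 0.01 on day 1, 0.15 on day 3, 0.29 on day 7, 0.01 on day 14 and -0.18 on day 28, and the median over all genes compared was 0.01, 0.03, 0.03, 0.10 and 0.03.

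**Figure D1:**
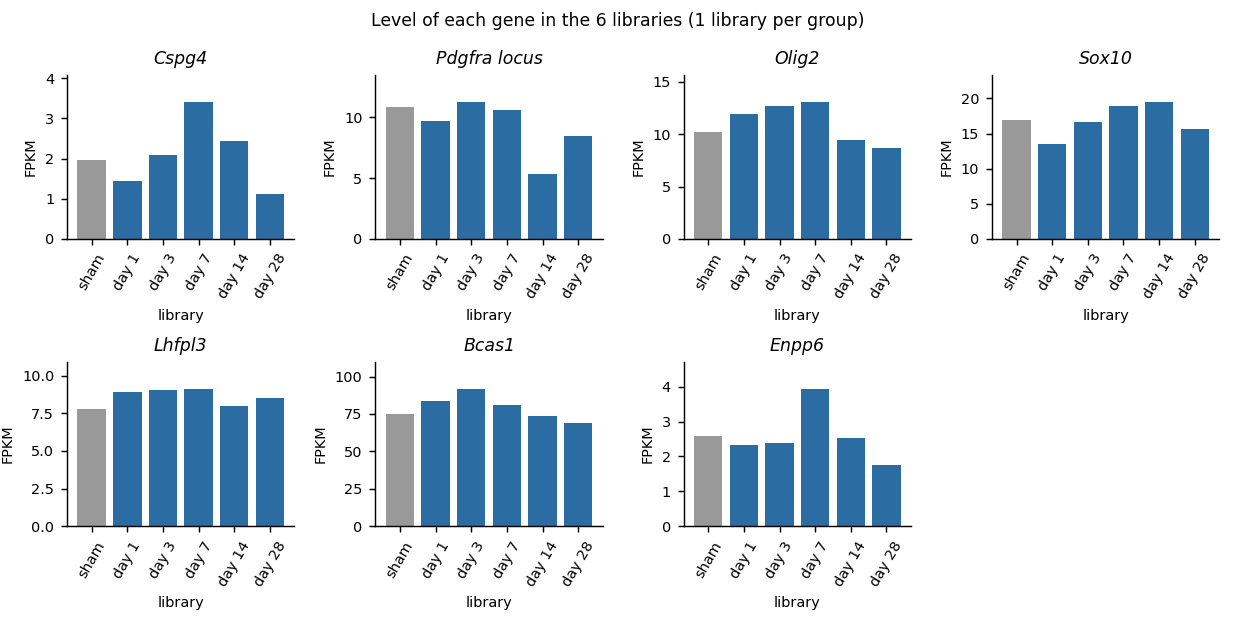
Level of each gene in FPKM (vertical axis, from 0, a scale of its own in each panel) in the 6 libraries, sham in grey and the post-stroke days in blue, with 1 library per bar and no error bar. Cspg4 and Enpp6 are highest on day 7 and lowest on day 28, the Pdgfra locus is lowest on day 14, and Lhfpl3 stays between 7.79 and 9.11 FPKM.

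Cspg4 encodes the NG2 proteoglycan of precursors, which pericytes of the vessel wall also carry (chr9:56865033-56899870, plus strand). It measured 1.97 FPKM in sham, 1.45 on day 1, 2.09 on day 3, 3.41 on day 7, 2.44 on day 14 and 1.10 on day 28. Day 7 was the highest library and day 28 the lowest, 3.09-fold apart. Among 10169 genes at 1 FPKM or more in every library, 93.7% had a smaller ratio of highest to lowest, for which the median was 1.59. The log2 ratios to sham were -0.42, 0.08, 0.76, 0.30 and -0.78 from day 1 to day 28. At these low levels Cspg4 lay above 16.4% (day 28) to 35.1% (day 7) of the genes listed in the same library.

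Cspg4 had a pair of starts and a single end. The start at chr9:56865033, the first base of the annotated gene, measured 1.01 FPKM in sham, 0.71 on day 1, 1.55 on day 3, 2.54 on day 7 and 1.05 on day 28, and was not listed on day 14. The start at chr9:56896323, close to the end of the gene, measured 0.96, 0.74, 0.54, 0.87, 0.34 and 0.06 FPKM from sham to day 28. The difference between sham and day 7 thus lay at the first start, while the second start was at 0.06 FPKM on day 28, where the first was close to its sham level. The day 14 value of Cspg4 rests on its end alone (2.44 FPKM).

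Some markers of the vessel wall and of fibroblasts, cells which can also express Cspg4 and Pdgfra, differed from sham in the same libraries. All 12 markers had a value, and their summed level was 79.4 FPKM in sham, 76.6 on day 1, 138 on day 3, 148 on day 7, 158 on day 14 and 79.6 on day 28. Pdgfrb, the PDGF receptor of pericytes, measured 3.18, 2.16, 4.33, 4.30, 3.95 and 2.61 FPKM, and was not past 2-fold at any day. Of the 12 markers, Col1a1, Col1a2, Dcn, Lum and Tagln were higher on day 3, against 8.54% of all genes called higher at that day. Abcc9 was called too, but it could enter that comparison through the day 3 library alone. Kcnj8, a potassium channel of pericytes, was not listed on day 28, and Abcc9, its partner subunit, was not listed in sham, on day 14 or on day 28. On day 7, where Cspg4 was highest, 9 of the 11 markers compared were above sham (of all genes 53.8%). The other 2 were below it: Kcnj8 (0.85 FPKM against 1.22 in sham) and Rgs5 (16.2 against 17.0 FPKM). The part of these cells in the Cspg4 and Pdgfra values was not tested.

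Pdgfra encodes the receptor that holds precursors in the cycle (chr5:75152292-75198215, plus strand). Its own identifier had no event in any library. The events at its annotated starts and at its annotated end stood under the identifier of Mir7025, a microRNA gene inside it (chr5:75176831-75176904), and they are called the Pdgfra locus here. This assignment was made from the coordinates after the values were seen. Of the 5 starts of the locus, all fall on the first base of an annotated Pdgfra transcript.

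The Pdgfra locus measured 10.8 FPKM in sham, 9.68 on day 1, 11.3 on day 3, 10.6 on day 7, 5.36 on day 14 and 8.47 on day 28. Sham and the first 3 time points lay between 9.68 and 11.3 FPKM, and day 14 was below them all. The log2 ratios were -0.16, 0.06, -0.02, -0.9996 and -0.35, so that day 14 lay at the 2-fold line, just inside it. It was past the line with a pseudocount of 0.01 FPKM (-1.01) and after scaling to the median ratio (-1.09), and was -0.75 with the length trend of that library removed and -0.62 with the end alone in both libraries. The value in sham is the sum of its starts and that on day 14 is its end. Its starts on day 14 summed to 1.08 FPKM and its end to 5.36 FPKM.

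The start that carried the Pdgfra locus changed over the time course. In sham the start at chr5:75155899, which opens the transcript Pdgfra-202, measured 8.31 FPKM, 76.8% of all starts, and the most upstream start at chr5:75152292 measured 1.12 FPKM, 10.3%. The downstream start measured 7.11 FPKM on day 1, 7.36 on day 3 and 5.39 on day 7, and was not listed on day 14 or day 28. The upstream start measured 1.69 FPKM on day 1, 2.99 on day 3, 4.25 on day 7, 1.08 on day 14 and 7.64 on day 28.

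The upstream share of the summed starts was thus 17.4% on day 1, 26.5% on day 3, 40.0% on day 7 and 90.2% on day 28. At day 14 it was 100%, with no other start listed. The other 3 starts each stayed below 1 FPKM wherever they were listed. The leading start differed from that of sham on day 14 and day 28, which was also so for 16.6% and 13.1% of all genes with at least 2 starts that summed to 1 FPKM or more in both libraries. The end of the locus measured 8.31, 7.12, 9.91, 9.23, 5.36 and 7.44 FPKM from sham to day 28. In sham and on day 1 it was close to the downstream start alone (8.31 and 7.11 FPKM). The summed starts there were 10.8 and 9.68 FPKM, so the end may not be independent of the choice of start. No replicate shows how far the assignment of reads to these starts, 3.6 kb apart, varies between libraries of the same kind.

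**Figure D2:**
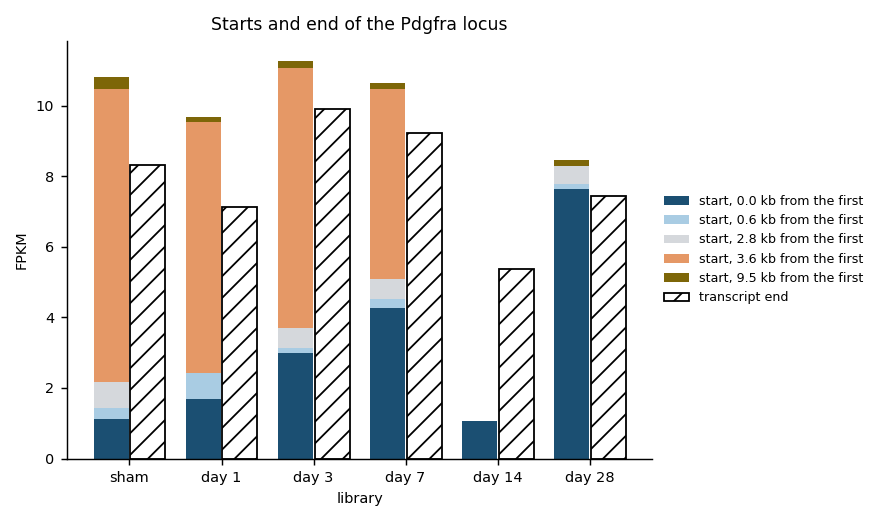
FPKM (vertical axis) of the 5 starts of the Pdgfra locus, stacked and coloured by their distance in kb from the most upstream start, beside the FPKM of its transcript end (hatched), in the 6 libraries with 1 library per bar. The most upstream start (dark blue) goes from 1.12 FPKM in sham to 7.64 on day 28, the start 3.6 kb downstream (orange) is not listed on day 14 and day 28, and the end is lowest on day 14.

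The genes of the PDGF ligands were listed in every library. Pdgfa, which encodes the PDGF-A chain that drives division of precursors, measured 18.0 FPKM in sham, 26.8 on day 1, 18.3 on day 3, 20.3 on day 7, 28.4 on day 14 and 19.0 on day 28. Pdgfd, which encodes a chain that acts mainly on the beta receptor, measured 1.07 FPKM in sham and was highest on day 7, at 2.11 FPKM. None of the 4 PDGF genes was past 2-fold at any day. All 4 were above sham on day 1 (of all genes 51.5%) and on day 14 (57.4%).

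Olig2 encodes the basic helix-loop-helix factor that specifies the lineage (chr16:91225457-91228677, plus strand). It measured 10.2 FPKM in sham, 11.9 on day 1, 12.7 on day 3, 13.1 on day 7, 9.45 on day 14 and 8.65 on day 28. The libraries of days 1, 3 and 7 were above sham and those of days 14 and 28 below it, with log2 ratios of 0.22, 0.31, 0.35, -0.11 and -0.24. The whole range was 1.51-fold, below the median of all genes.

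Sox10 encodes the HMG-box factor that drives myelin genes (chr15:79154908-79165240, minus strand). It measured 16.9 FPKM in sham, 13.6 on day 1, 16.7 on day 3, 18.9 on day 7, 19.5 on day 14 and 15.7 on day 28. Day 1 was the lowest library and day 14 the highest, 1.44-fold apart, and the log2 ratios were -0.32, -0.02, 0.16, 0.20 and -0.11. Its place on day 14 depended on the scaling: the log2 ratio was 0.14 on day 7 and 0.03 on day 14 with the length trend removed, and 0.15 and 0.11 after scaling to the median ratio, so that day 7 was then the higher, as for Olig2. On day 1 Olig2 was above sham and Sox10 below it.

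Lhfpl3 encodes a tetraspan membrane protein enriched in precursors (chr5:22746059-23275597, plus strand). It measured 7.79 FPKM in sham, 8.95 on day 1, 9.03 on day 3, 9.11 on day 7, 7.998 on day 14 and 8.54 on day 28. Sham was the lowest library. The highest and the lowest value were 1.17-fold apart, a range that only 2.64% of the 10169 genes stayed under.

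Lhfpl3 has an exon near its 3′ end (chr5:23221865-23221912, 48 bases in its longer form) that was included or skipped. The shorter form of 28 bases, read from the transcript Lhfpl3-202, is shown because it holds all 17 coding bases of the exon, in capitals, with the stop codon at their end.
Lhfpl3 exon, shorter form (chr5:23221865-23221892): ATGATGGAAATGCTTAAagcaaactaag
The transcripts with either form of the exon measured 1.83 FPKM in sham, 2.83 on day 1, 1.84 on day 3, 2.38 on day 7, 1.52 on day 14 and 4.51 on day 28. Those that skipped it measured 5.96, 6.12, 7.18, 6.73, 6.48 and 4.04 FPKM. Day 28 was the only library in which the included form was the larger one, at 52.8% of the total, against 19.0% to 31.6% in the others. The shorter form was listed on day 7 (0.87 FPKM) and day 28 (0.56 FPKM) only. For the longer form alone, the inclusion share against skipping was 26.0 percentage points above sham on day 28, and of the 3140 exons or exon runs compared at that day 18.1% were at least 10 points higher and 21.2% at least 10 points lower, so shifts of inclusion were frequent in these libraries.

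Bcas1 was the most abundant of the lineage genes, above 94.9% to 96.9% of the listed genes in each library. It measured 74.9 FPKM in sham, 83.7 on day 1, 91.6 on day 3, 81.2 on day 7, 73.9 on day 14 and 68.7 on day 28. Day 3 was the highest library and day 28 the lowest, 1.33-fold apart, with log2 ratios of 0.16, 0.29, 0.12, -0.02 and -0.13. All of it came from 1 start.

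The form of Bcas1 with all 3 exons of the run measured 11.6 FPKM in sham, 9.86 on day 1, 33.1 on day 3, 22.4 on day 7, 15.1 on day 14 and 10.9 on day 28. Day 3 stood 2.85-fold and day 7 1.93-fold above sham, and days 1 and 28 lay slightly below it. The form with the last exon alone measured 20.1, 18.7, 18.3, 12.8, 19.6 and 18.0 FPKM, lowest on day 7. The form with none of the 3 measured 43.2, 55.1, 40.2, 46.1, 39.2 and 39.8 FPKM, highest on day 1.

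These 3 forms add up to the whole of Bcas1 in every library. Between sham and day 3 the total was 16.7 FPKM higher, and the form with all 3 exons was 21.5 FPKM higher, so the other forms together were below sham (58.5 against 63.3 FPKM). The long form made up 15.5% of Bcas1 in sham, 11.8% on day 1, 36.2% on day 3, 27.5% on day 7, 20.4% on day 14 and 15.9% on day 28. Against the form that skips the whole run, its share was 21.2% in sham and 45.2% on day 3, a difference of 24.0 percentage points.

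Such a difference was not rare. Of 3184 exons or exon runs compared on day 3, 18.9% were at least 10 points higher than in sham and 21.9% at least 10 points lower. By size in any direction, 82.7% of them differed by less than the Bcas1 run. Among the 681 with at least 20 FPKM in both libraries, 10.7% were that much higher and 14.1% that much lower, and 33 of them, the Bcas1 run included, were at least as high as it. At day 7 the Bcas1 difference was 11.5 points, and of 714 such pairs 11.2% were at least 10 points higher and 12.7% at least 10 points lower.

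**Figure D3:**
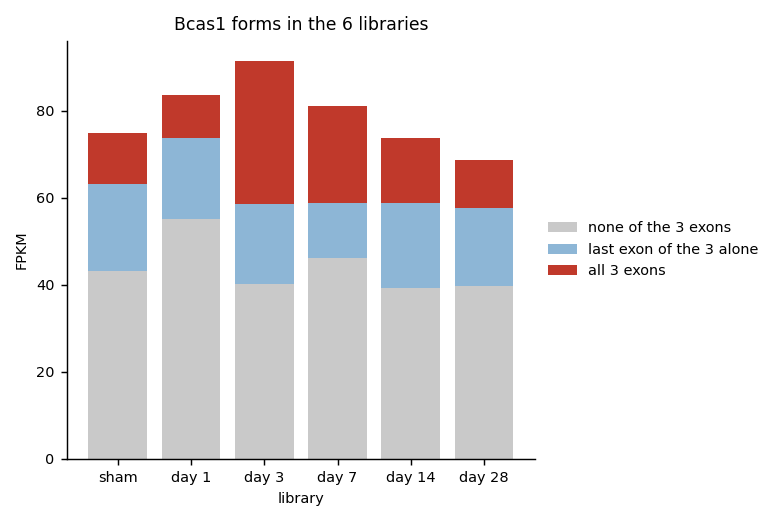
FPKM (vertical axis) of the 3 forms of Bcas1 stacked for each of the 6 libraries, 1 library per bar: none of the 3 exons (grey), last exon alone (blue) and all 3 exons (red). The red part is 33.1 FPKM on day 3 and 22.4 FPKM on day 7, against 9.86 to 15.1 FPKM in the other libraries.

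Enpp6 encodes a choline phosphodiesterase of newly formed oligodendrocytes (chr8:46986887-47096762, plus strand). It measured 2.58 FPKM in sham, 2.32 on day 1, 2.39 on day 3, 3.93 on day 7, 2.52 on day 14 and 1.74 on day 28. Day 7 was the highest library and day 28 the lowest, 2.25-fold apart, while sham, days 1, 3 and 14 lay between 2.32 and 2.58 FPKM. The log2 ratios were -0.15, -0.11, 0.59, -0.03 and -0.54. The value on day 14 is that of its ends. Its start measured 1.45 FPKM in that library, which gives a log2 ratio of -0.72 from the starts. Which library was lowest depended on how the gene value was built. From the ends alone it was day 3 (1.69 FPKM, log2 ratio -0.59), and from the starts alone it was day 14. On day 1 the log2 ratio from the starts was -0.52. Day 7 was the highest library from the starts and from the ends. A second start, at chr8:47028753, was listed on day 7 only, at 0.45 FPKM.

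By sign alone, 3 of the 6 were above sham on day 1 (of all genes 51.5%), 4 on day 3 (53.4%), 6 on day 7 (53.8%), 3 on day 14 (57.4%) and 1 on day 28 (53.8%). The gene above sham on day 28 was Lhfpl3. With the Pdgfra locus, day 7 was the highest library for 4 genes and day 28 the lowest for 4, against 12.1% and 12.7% of all genes. All these comparisons share the sham library. Of the 10169 genes at 1 FPKM or more in every library, 76.0% stayed within 2-fold over all 6 libraries, as did 4 of the 6 lineage genes (Bcas1, Olig2, Sox10 and Lhfpl3).

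**Figure D4:**
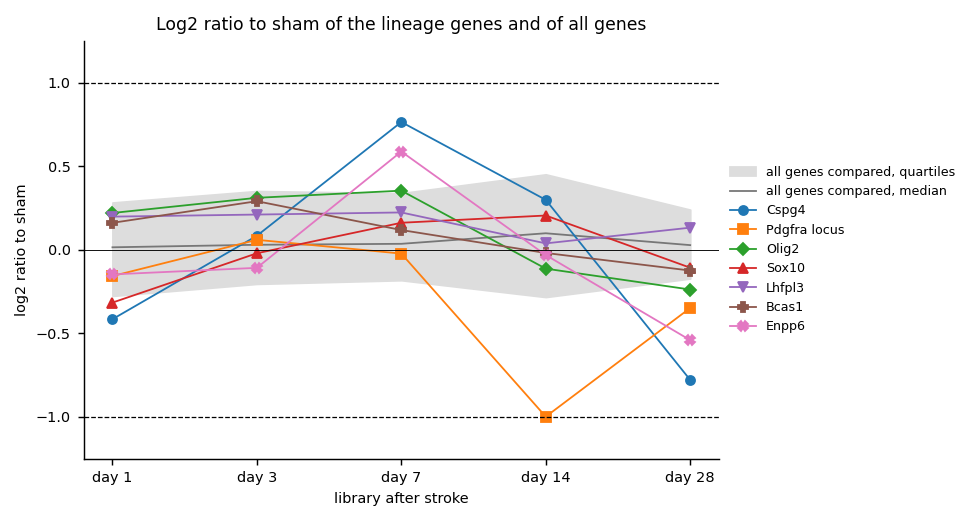
Log2 ratio to sham (vertical axis) of the 6 lineage genes and the Pdgfra locus at each post-stroke day, over the quartile range (grey band) and the median (grey line) of all genes compared, with dashed lines at 2-fold. Cspg4 and Enpp6 are above the band on day 7 and below it on day 28, the Pdgfra locus meets the lower line on day 14, and the other genes mostly stay in or near the band.

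Over the 6 libraries the lineage genes did not follow a single course. The Pearson r of log2(FPKM + 0.1) was 0.93 between Cspg4 and Enpp6 and 0.90 between Bcas1 and Olig2. It was -0.16 between Bcas1 and Sox10, -0.04 between Olig2 and Sox10 and 0.01 between Cspg4 and the Pdgfra locus. These values describe 6 libraries that all genes share, with their depth and composition, and carry no p.

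Other genes of precursors were counted from a list of 15, of which 13 had a value. None was higher at any day, against 3.68% to 8.97% of all genes. Those called lower, against 2.12% to 6.92% of all genes, were at low levels. Nkx2-2, a homeobox factor of the lineage, measured 1.35 FPKM in sham, 1.32 on day 3, 0.23 on day 7 and 2.05 on day 14, and was not listed at days 1 and 28. Sox6, which holds precursors undifferentiated, measured 1.27 FPKM in sham, 0.05 on day 1, 2.27 on day 3, 1.53 on day 7 and 1.33 on day 28, and was not listed on day 14. Vcan, the proteoglycan versican, measured 1.77 FPKM in sham, 1.06 on day 1, 2.96 on day 3, 2.71 on day 7, 0.04 on day 14 and 1.24 on day 28. All 3 genes called lower at any day thus lay between 1 and 2 FPKM in sham, with Nkx2-2 lower at days 1, 7 and 28, Sox6 at days 1 and 14 and Vcan at day 14.

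The list median of these precursor genes was -0.37 on day 1, 0.38 on day 3, 0.09 on day 7, 0.02 on day 14 and -0.04 on day 28. At day 3, 10 of the 13 were above sham (of all genes 53.4%). The highest value at that day was for Sox5, a relative of Sox6, which measured 2.80 FPKM in sham, 1.58 on day 1, 4.94 on day 3 and 3.74 on day 7. Ptprz1, a receptor phosphatase of precursors that astrocytes also express, measured 26.9 FPKM in sham, 20.1 on day 1, 34.7 on day 3 and 19.0 on day 14. Ptprz1, Sox5, Sox6 and Vcan were thus lowest or not listed on day 1 or day 14, the libraries in which the ratio fell with transcript length. Others went the other way, and Cacng4, Megf11, Nkx2-2 and Pcdh15 were highest on day 14. Above sham were 4 of the 13 on day 1 (of all genes 51.5%) and 7 on day 14 (57.4%). The part of length in the values of this list was not tested.

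All 12 genes of newly formed oligodendrocytes had a value. Tcf7l2, the Wnt effector that marks this stage, was the only one higher, on day 1, with 0.81 FPKM in sham, under the minimum of 1 FPKM, and 1.98 FPKM on day 1. It could thus enter that comparison through the day 1 library alone, and it measured 0.56 FPKM on day 14. Nfasc, the adhesion protein neurofascin that neurons express too, was lower at days 3 and 14, with 32.3 FPKM in sham, 14.5 on day 3, 35.6 on day 7 and 14.4 on day 14. Itpr2, an intracellular calcium channel, was lower on day 14 (0.79 FPKM against 2.39 in sham). Among all genes, 5.11% were called higher on day 1, and 2.53% and 6.92% lower on days 3 and 14. The part of transcript length in the day 14 values of Nfasc and Itpr2 was not tested. The list median was 0.26 on day 7 and -0.24 on day 28. On day 7, 9 of 12 were above sham (of all genes 53.8%), and on day 28, 9 of 11 were below it (46.2%).

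Of 15 genes of mature myelin, 14 had a value. Mag, the myelin-associated glycoprotein, was higher on day 7, with 33.8 FPKM in sham, 62.6 on day 1, 26.8 on day 3, 69.0 on day 7, 45.9 on day 14 and 54.0 on day 28. Its libraries alternated, with day 3 below sham between 2 libraries above it. Ugt8a, the enzyme that makes galactocerebroside, was lower at days 1 and 28, with 17.8 FPKM in sham, 6.56 on day 1 and 8.17 on day 28. The share of all genes called higher on day 7 was 8.53%, and the shares called lower on days 1 and 28 were 4.48% and 2.79%. Mbp measured 1241 FPKM in sham, 1591 on day 1, 1205 on day 3, 1416 on day 7, 1409 on day 14 and 1142 on day 28. The list median was 0.10 on day 7 and -0.28 on day 28, and 10 of 14 were below sham on day 28 (of all genes 46.2%).

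Genes of pathways that regulate differentiation of precursors (ID proteins, Notch, BMP and Wnt signalling) were a list of 16, all with a value. The list mixes directions of action, since Axin2 and Apcdd1 are feedback inhibitors of Wnt signalling, and its median says nothing of a balance between them. Id1, an inhibitor of basic helix-loop-helix factors that is also induced in vessels, was higher on day 1, with 9.75 FPKM in sham, 21.6 on day 1, 16.7 on day 3, 14.1 on day 7, 14.9 on day 14 and 11.2 on day 28. Bmp2 was lower on day 1 (0.37 FPKM against 1.03 in sham), and Hey1, a Notch target, was lower on day 3 (8.82 against 21.9 FPKM). Notch1 measured 2.56 FPKM in sham and was not listed at days 1 and 14, and the part of transcript length in this was not tested. Beside these calls, 5.11% of all genes were called higher on day 1, and 4.48%, 2.53% and 6.92% lower on days 1, 3 and 14. Id4, which is known to restrain OLIG proteins, measured 27.5 FPKM in sham, 49.4 on day 3 and 53.8 on day 7, without passing 2-fold. The list median was between -0.04 on day 28 and 0.33 on day 3.

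**Figure D5:**
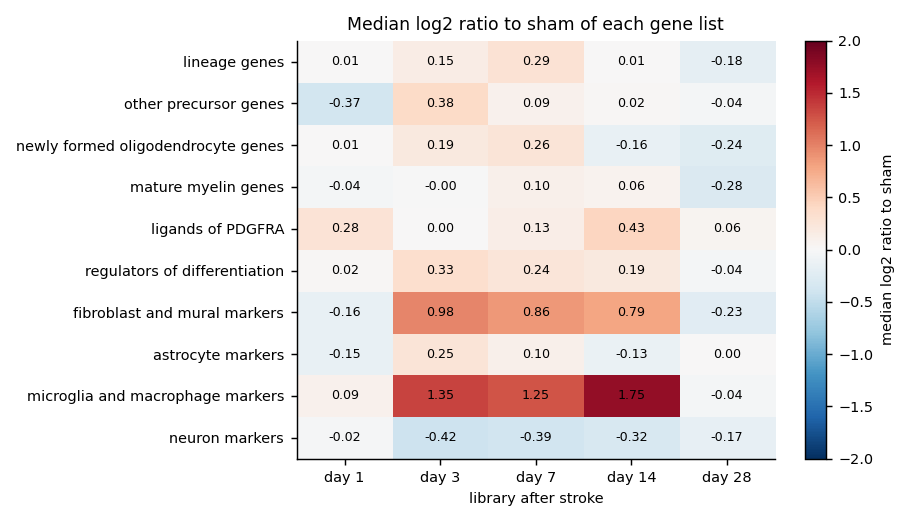
Median log2 ratio to sham of each gene list (rows) at each post-stroke day (columns), as printed in each cell and coloured from blue (lower) to red (higher). The lists of the oligodendrocyte lineage lie between -0.37 and 0.38. The medians of fibroblast and mural markers reach 0.98 on day 3 and those of microglia and macrophage markers 1.75 on day 14. These medians include genes that were not listed or below 1 FPKM in sham and entered through the post-stroke library alone. They are Abcc9 on day 3, and Cx3cr1 and Ptprc on day 14.

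Markers of other cell types also differed from sham in the same libraries. All 8 microglia and macrophage markers had a value, with a summed level of 112 FPKM in sham, 102 on day 1, 256 on day 3, 337 on day 7, 227 on day 14 and 112 on day 28. Cx3cr1 and Tmem119, which define microglia, were not listed in sham. Gfap, the filament of reactive astrocytes, measured 85.8 FPKM in sham and 698 on day 3, and the 8 astrocyte markers summed to 882 FPKM in sham and 1529 on day 3. Gfap was the only astrocyte marker past 2-fold, on days 1 to 14, when 5.11% to 8.97% of all genes were called higher. The median of the astrocyte list lay between -0.15 on day 1 and 0.25 on day 3. The 7 neuron markers summed to 1165 FPKM on day 3 and 1207 on day 7, below 1617 in sham, and none was past 2-fold. The part of these cells in the lineage values was not tested.

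The summed level of markers of dividing cells was low in sham and highest on day 3. The 8 markers summed to 2.26 FPKM in sham, 4.36 on day 1, 29.1 on day 3, 15.3 on day 7, 3.60 on day 14 and 2.85 on day 28. All 8 were below 1 FPKM or not listed in sham, so they could enter a comparison through the post-stroke library alone, and no count of calls is given for them. Top2a, the topoisomerase of dividing cells, measured 0.79 FPKM in sham and 12.8 on day 3. Of the lineage genes, Bcas1 and the Pdgfra locus were also highest on day 3, while Cspg4, Enpp6, Olig2 and Lhfpl3 were highest on day 7. Which cells divided was not analysed here.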

How the data were processed

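RNA-seq libraries of the ipsilateral cortex were analysed for 6 groups of 1 library each (pooled RNA of 3 mice). The authors deposited FPKM per transcript start, end or splicing event, with mm10 coordinates. The submitters' processing notes name Trimmomatic 0.30, HISAT2 2.0.1 and HTSeq 0.6.1, and the tool that made the event values is not given in the sources used here. FPKM are scaled to length and depth, so no counting interval or floor can be had.

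Genes were taken by the Ensembl identifier of each event. The gene value and the log2 ratio are defined with the results. Genes with at least 1 FPKM in 1 of the 2 libraries were compared, and a gene not listed in a library was taken as 0 in counts and list medians. Rows without an identifier were left out (0.94%). The 9 genes and the lists were chosen with earlier results of these data known, and no list is independent support. Named are these genes, list genes past the threshold at any day or given as examples after their values were seen, and the 3 genes most like each. An inclusion share is the FPKM of an included exon or run over that of the included and skipped forms. Annotation and exon sequences are from GENCODE M21 (GRCm38). Alternatives changed 1 choice at a time: pseudocount, low-value filter, fold threshold, scaling between libraries, construction of the gene value, and length trend. The scripts were tested on simulated data. Python 3.11.15, numpy 2.4.6, pandas 2.3.3 and matplotlib 3.10.9 were used.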

Additional observations from a re-analysis of the deposited data

How the results depend on the processing

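With 1 library per group, no library could be left out and nothing could be tested. No paired analysis was possible because each group has a single library and the labels share no replicate numbers. The number of lineage genes past the threshold was 0 at every day, with 2 exceptions. A 1.5-fold threshold gave 2 on day 7 (Cspg4 and Enpp6) and 1 on day 28 (Cspg4), and the sum of starts gave 1 on day 14 (Cspg4). The share of all genes called was not computed under these 2 settings, so these counts do not set the lineage genes apart. With the sum of starts, the day 14 log2 ratio was -2.23 for Cspg4, against 0.30, and -0.72 for Enpp6. The log2 ratio of the Pdgfra locus on day 14 was -3.21 with the sum of starts, -1.01 with a pseudocount of 0.01 FPKM, -1.09 after scaling to the median ratio, -0.89 with a pseudocount of 1 FPKM, -0.75 with the length trend removed and -0.62 with the sum of ends. The alternatives for this locus were added after its values were seen. The median of the lineage genes stayed between 0.22 and 0.35 on day 7 and between -0.24 and -0.17 on day 28. It took both signs on day 1 (-0.15 to 0.02) and day 14 (-0.08 to 0.04). All lineage genes with a value were above sham on day 7 under each alternative on the 6 genes. Several alternatives could not alter this. A pseudocount cannot change a sign. The 6 values were the same without the low-value filter, with the larger of summed starts and ends, and with events inside the annotated gene. The Bcas1 form with all 3 exons had log2 ratios from 1.44 to 1.51 on day 3.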

Other observations

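The case of Pdgfra was not a single one. In all, 187 identifiers of small RNA genes had a value, 125 of these lay inside a protein-coding gene on its strand, and for 122 of the 125 the host gene had no value under its own identifier. A search of these tables by identifier alone would therefore leave such hosts out.

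The genes whose levels were most like those of each lineage gene were found by Pearson r of log2(FPKM + 0.1) over the 6 libraries, among 10168 other genes at 1 FPKM or more in every library. With so many genes and 6 libraries, values close to 1 occur for any gene, and they are given as a description. For Cspg4 they were T2 (0.997), Rab1a (0.988) and the locus named Mir6925 (0.986). For the Pdgfra locus they were Gm2004 (0.997), Slc13a5 (0.996) and Trak2 (0.995). For Olig2 they were Usp16 (0.994), Slc39a1 (0.992) and Maged2 (0.974), and for Sox10 Cpped1 (0.982), Slc9a8 (0.980) and Zfp507 (0.979). For Lhfpl3 they were Cdc42se1 (0.983), Pdlim5 (0.972) and Ddx21 (0.972). For Bcas1 they were Efemp2 (0.973), Commd3 (0.968) and Mrpl17 (0.966). For Enpp6 they were Sema4d (0.969), Bco2 (0.967) and Fam107b (0.964), and Sema4d, a semaphorin of oligodendrocytes, was also in the list of newly formed oligodendrocyte genes.

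A further exon of Bcas1 had a second form. Beside the exon at chr2:170384189-170384326, a form that starts 3 bases later on the minus strand (chr2:170384189-170384323) was listed on day 1 (9.86 FPKM) and day 3 (8.68 FPKM) and in no other library.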
